A study of Macaca mulatta with 22 samples.

Results

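First-fifth peaks away from the gene start are N6-methyladenosine (m6A) peaks that lie early in a gene and whose 5' edge is away from its annotated start. The position of a peak was that of its midpoint between the ends of the transcript listed beside it, introns included, counted from the 5' end as 0 to the 3' end as 1. A peak was taken if this position was below 0.2 and its 5' edge lay more than 100 bp from the transcript's 5' end. Of 10069 peaks in 11 animals, 9215 could be given a position, and 1594 of these were such first-fifth peaks, in 772 of the 3413 genes with a positioned peak. The other positioned peaks were 3527 past position 0.8 (last-fifth peaks), 3238 in the middle (mid-gene peaks) and 856 whose 5' edge lay within 100 bp of the annotated start (cap-proximal peaks). The choice used position alone, and no enrichment value entered it.

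The tissue was prefrontal cortex, taken from infant rhesus monkeys (Macaca mulatta) that were all at postnatal day 35, with m6A-carrying fragments of total RNA pulled down by an antibody and sequenced with a stranded kit. The 5 sevoflurane animals, which were the males D and S1 and the females S2, S3 and F, had breathed roughly 2.5 to 3% of this inhaled general anaesthetic for 4 h at about days 7, 21 and 35. The 6 controls, which were the males A and B and the females C1, C2, C3 and C, carry no other label, and no handling or sham exposure is stated for them. Each animal gave 1 peak list, no read totals accompany the lists, and the depth behind each peak is therefore unknown. Positioned peaks numbered from 350 to 1124 in controls and from 777 to 1565 in sevoflurane animals. The input libraries hold RNA levels and were not analysed here, so a peak that is absent may reflect less RNA or less m6A. In bulk cortex, fewer cells of a type and less RNA per cell cannot be told apart either.

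m6A is written on nascent mRNA by the METTL3 and METTL14 methyltransferase complex, removed by FTO and ALKBH5, and read by YTH-domain proteins that alter splicing, export, translation and decay. In mammalian mRNA it is known above all from the region of the stop codon, long internal exons and the last exon. Marks early in a transcript have been studied in connection with cap-independent translation, and the first transcribed nucleotide can carry a related modification, m6Am, that m6A antibodies also bind. The peaks described here begin more than 100 bp from the annotated start, on either side of it, so those that begin upstream can still run across it.

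Over all 1594 first-fifth peaks the median position was 0.0267, the quartiles were 0.00283 and 0.0973, and the 5' edge lay at a median of 358 bp downstream of the annotated start. For 1264 peaks (79.3%) in 626 genes the edge lay inside the listed transcript, at a median of 540 bp. The median position of these was 0.0470, with quartiles of 0.00936 and 0.111. Of these, 406 began 101 to 300 bp inside, 446 began 301 to 1000 bp inside, 293 began 1001 to 5000 bp inside and 119 began farther in. These 1264 peaks covered a median of 150 bp of exon, with quartiles of 119 and 181 bp. Both strands were used about equally, with 833 peaks (52.3%) on plus-strand and 761 on minus-strand genes.

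**Figure D1:**
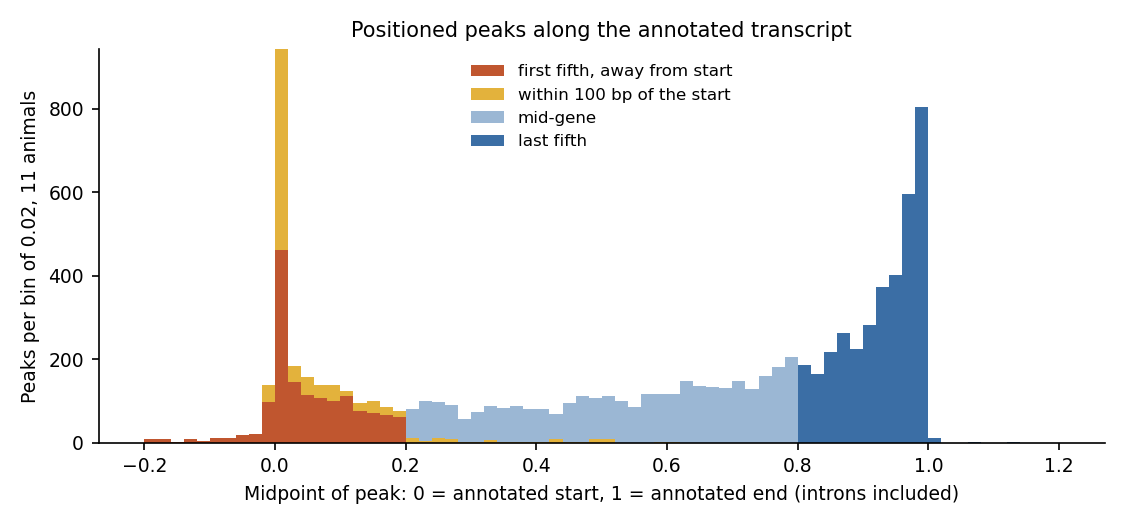
Number of positioned peaks of 11 animals (y axis) in bins of 0.02 of the annotated transcript (x axis, 0 the annotated start and 1 the annotated end, introns included), stacked by position class. First-fifth peaks away from the start are most numerous just past 0 and thin out towards 0.2, and the 82 peaks below -0.2 lie outside the plotted range.

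The remaining 330 peaks (20.7%), in 180 genes, began more than 100 bp upstream of the listed start, since the rule sets no lower limit on position. All 330 had an exonic block over the first base of the listed transcript. Their 5' edge lay a median of 1523.5 bp upstream, and the farthest, in the axon guidance receptor gene ROBO2, lay 363710 bp upstream. Most of them were joined from several exonic blocks, 79.4% against 26.3% of the peaks that began inside. All 177 that began over 1000 bp upstream had at least 2 blocks. A peak table lists 1 transcript per peak, and 230 of the 3413 genes (6.74%) appeared with more than 1 transcript. The sorting nexin gene SNX27, whose product returns receptors from endosomes to the plasma membrane, shows what this does. In control animal A its peak began 118 bp inside the listed transcript, whereas in the other 10 animals an overlapping peak of 2 blocks was listed with another transcript and began 26780 to 26959 bp upstream of that one's start. The groups of genes with an upstream edge therefore describe the listed transcript and not a measured start site.

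**Figure D2:**
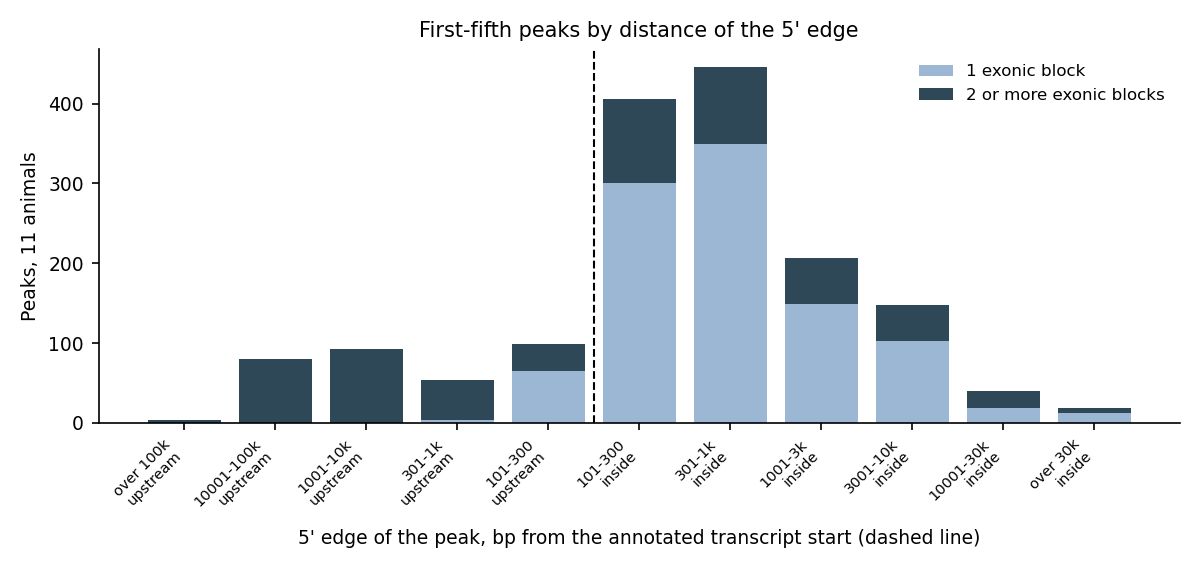
Number of first-fifth peaks of 11 animals (y axis) by the distance of the peak's 5' edge from the start of the listed transcript (x axis, bp, upstream to the left of the dashed line and inside to the right), split by whether the peak has 1 exonic block or more. Of the peaks, 406 begin 101 to 300 bp and 446 begin 301 to 1000 bp inside the transcript, and every peak over 1000 bp upstream has several blocks.

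First-fifth peaks fell mostly in the first exons. The annotation class was exon for 1024 peaks (64.2%) and the untranslated region at the gene's 5' end for 546 (34.3%). Both shares depended on the strand, and the cause was not tested. The untranslated class held 377 of 833 plus-strand peaks (45.3%) and 169 of 761 minus-strand peaks (22.2%). Exon held 53.3% and 76.2%. On the minus strand the deposited tables name the gene's 5' end the 3' UTR, in these 169 peaks. They also number exons by genomic coordinate in all 361 minus-strand transcripts that could be checked. Exons were therefore counted from the gene's 5' end. Of the 1023 first-fifth peaks with an exon number, 52.1% lay in exon 1, 24.5% in exon 2 and 23.4% in a later exon. Exon 1 held 69.8% of numbered cap-proximal peaks, 3.26% of mid-gene peaks and 0.236% of last-fifth peaks. Only 2.44% of the numbered first-fifth peaks lay in the transcript's last exon. These shares by exon number follow from position and are given as a description.

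Enrichment was compared through ranks. The fold enrichment of a peak is the authors' own value and orders peaks only within a list, so each peak was given its percentile among all peaks of its animal's list, with 100 the highest. The first-fifth peaks of an animal had a median percentile between 49.98 and 60.6, with a mean of 54.2 ± 3.27 (SD, n = 11). This was above the mid-gene peaks of the same animals, at 41.9 ± 2.06 (SD, n = 11), in 11 of 11 animals. The difference was 12.3 points, with a 95% interval of 9.85 to 14.9 by inversion of the test (exact sign-flip permutation test, two-sided, p = 0.000977, the smallest this test can give, and 0.00293 after Benjamini-Hochberg adjustment over 6 class comparisons). Among peaks of 1 block the difference was 13.3 points. Mid-gene peaks were joined from several blocks more often, in 51.8% of peaks against 37.3% of first-fifth peaks.

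Against the cap-proximal and last-fifth peaks the difference in rank did not pass the test. Last-fifth peaks, at the end where m6A is best known, stood at 53.5 ± 1.97 (SD, n = 11), and first-fifth peaks were higher in 6 of 11 animals, by 0.637 points (95% interval -1.89 to 3.18, exact sign-flip permutation p = 0.572, adjusted 0.572). Cap-proximal peaks stood at 52.0 ± 5.89 (SD, n = 11), and first-fifth peaks were higher in 7 of 11, by 2.17 points (95% interval -2.60 to 7.01, exact sign-flip permutation p = 0.326, adjusted 0.391). Both comparisons turned with the distance limit. When only peaks beginning more than 300 bp from the start were taken, and all nearer ones counted as near the start, first-fifth peaks differed from last-fifth peaks by -4.02 points (exact permutation p = 0.00684) and from the peaks near the start by -7.61 points (exact permutation p = 0.00195). When only peaks with the edge inside the transcript were taken, they stood 3.404 points above last-fifth peaks (exact permutation p = 0.0244) and 4.93 points above cap-proximal ones (exact permutation p = 0.0469).

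**Figure D3:**
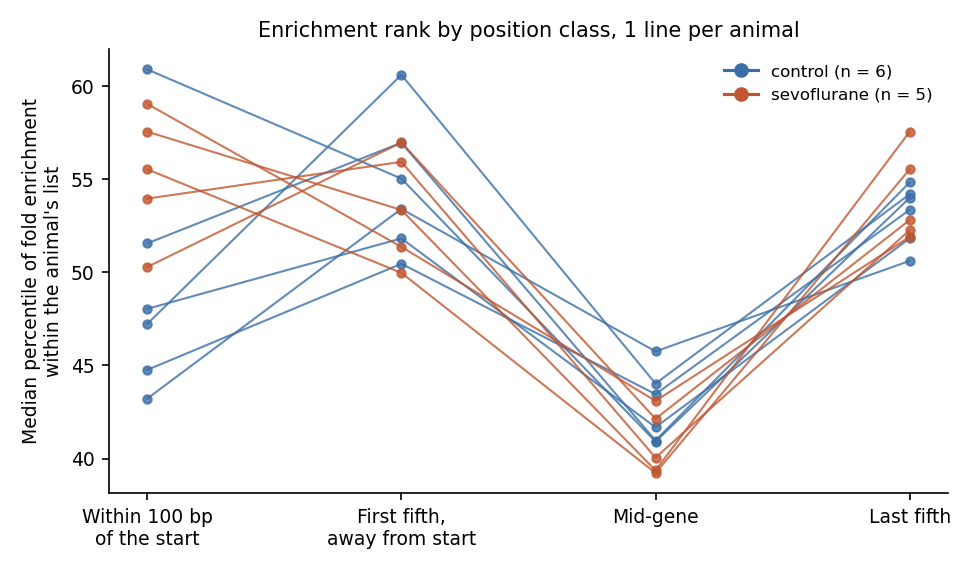
Median percentile of the authors' fold enrichment within the animal's list (y axis) for 4 position classes (x axis), 1 line per animal, blue for 6 control and orange for 5 sevoflurane animals. First-fifth peaks lie above mid-gene peaks in each of the 11 animals, with no such order against the cap-proximal or last-fifth peaks.

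Among the first-fifth peaks that began inside the transcript, those at 101 to 300 bp had the highest median over all animals. Peaks beginning 101 to 300 bp inside had a median percentile of 63.0 over all animals, those at 301 to 1000 bp 54.8, those at 1001 to 5000 bp 51.0 and those farther in 45.9. Per animal, the median of the 101 to 300 bp peaks averaged 65.6 ± 8.43 (SD, n = 11) and exceeded that of peaks over 1000 bp inside, 51.8 ± 9.65, in 10 of 11 animals, the exception being sevoflurane animal S1. Peaks at 301 to 1000 bp, at 52.1 ± 8.19 (SD, n = 11), exceeded the peaks over 1000 bp in 5 of 11 animals. In S1 and S2 the peaks at 301 to 1000 bp stood above those at 101 to 300 bp, at 62.5 against 60.9 and 54.5 against 50.5. Across the limits of the rule, the 101 peaks with an edge 101 to 120 bp inside had a median of 57.8 and the 112 left out at 81 to 100 bp had 66.3. The 26 peaks at positions 0.19 to 0.2 had a median of 51.1, and the 36 at 0.2 to 0.21 had 37.9.

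Peaks of 1 exonic block stood above those of several. Peaks of 1 block, 999 of the 1594, had a median percentile of 62.1, those of 2 blocks 42.5, those of 3 blocks 42.6 and the 46 of 4 or more blocks 51.3. The animals' medians were 61.8 ± 5.31 for 1 block and 41.4 ± 4.55 for several (SD, n = 11), with 1 block higher in 11 of 11. Peaks that began inside exceeded those that began upstream in 10 of 11 animals (56.9 ± 4.39 against 47.7 ± 6.0, SD, n = 11), with sevoflurane animal S2 the exception. The 177 peaks over 1000 bp upstream, all of several blocks, had a median of 39.6, and the 153 at 101 to 1000 bp upstream had 57.2. These orders were read off after seeing the data and carry no test.

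First-fifth peaks were made of several blocks more often than last-fifth peaks. In an animal 36.1 ± 6.08% of them had at least 2 blocks, against 22.5 ± 5.47% of last-fifth peaks (SD, n = 11). The share was 34.6 ± 6.81% of cap-proximal and 49.6 ± 7.79% of mid-gene peaks (SD, n = 11), and these were not tested. The difference from last-fifth peaks was 13.6 percentage points (95% interval 10.998 to 16.03) and had this sign in 11 of 11 animals (exact sign-flip permutation p = 0.000977, adjusted 0.00293). Without the peaks that begin upstream it shrank to 2.54 points (exact permutation p = 0.0400, unadjusted). The rule shapes this comparison, since it admits peaks far upstream of the listed start. All 177 that began over 1000 bp upstream had several blocks. Exonic width did not differ detectably, with medians per animal of 147.6 ± 8.86 bp and 142.1 ± 13.6 bp (SD, n = 11). That difference was 5.50 bp (95% interval -6.58 to 17.1, exact sign-flip permutation p = 0.180, adjusted 0.270).

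Most genes with a first-fifth peak had no positioned peak of another class in the same animal. Per animal, 11.5 ± 5.42% of them also had a peak of another class, against 9.71 ± 4.29% of genes with a last-fifth peak (SD, n = 11). The difference was 1.78 points (95% interval -0.0942 to 3.74, exact sign-flip permutation p = 0.0596, adjusted 0.119, higher in 7 of 11 animals). A last-fifth peak accompanied the first-fifth peak in 0.980 to 11.1% of these genes. A mid-gene peak did so in 0.980 to 11.4%. A cap-proximal peak did so in 0 to 4.64%.

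Sevoflurane animals had more first-fifth peaks, in proportion to their longer lists. The 6 control animals had from 67 to 181 with a median of 93, and the sevoflurane animals had 122 in S1, 165 in S3, 200 in D, 220 in F and 271 in S2. The groups overlapped through the control animal C3, whose 181 peaks exceeded those of S1 and S3. The means were 102.7 ± 41.1 (SD, n = 6) and 195.6 ± 56.2 (SD, n = 5). Treated animals thus had 1.94 times as many by geometric means (95% interval 1.22 to 2.99), or 0.96 more on the log2 scale (exact permutation test over 462 relabellings, two-sided, p = 0.0130, adjusted over 4 treatment results 0.0260). Controls had 100.3 ± 39.3 genes with such a peak (SD, n = 6) and treated animals 188 ± 53.2 (SD, n = 5), with a geometric mean ratio of 1.91 (95% interval 1.21 to 2.94, exact permutation p = 0.0130, adjusted 0.0260).

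The share of positioned peaks that were first-fifth peaks did not change detectably. It ran from 16.1 to 19.1% in controls with a median of 17.4%, and was 14.5% in S3, 15.7% in S1, 17.3% in S2, 18.8% in D and 20.3% in F. The control range lay within the range of the sevoflurane animals. The means were 17.5 ± 1.24% (SD, n = 6) and 17.3 ± 2.34% (SD, n = 5), a difference of -0.167 percentage points (95% interval -2.61 to 2.35, exact permutation p = 0.866, adjusted 0.866). When every list was cut to the 452 peaks of the shortest one, the difference in the number of first-fifth peaks was 0.0715 on the log2 scale (exact permutation p = 0.268) and that in genes 0.0600 (exact permutation p = 0.413).

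**Figure D4:**
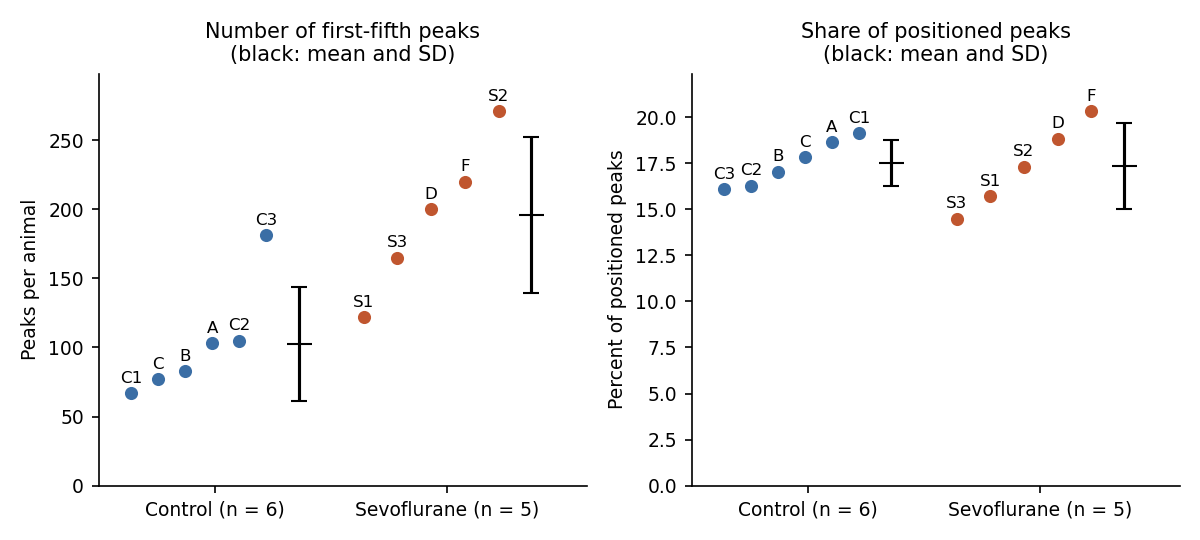
First-fifth peaks per animal as a number (left, y axis) and as a percent of the animal's positioned peaks (right, y axis) for 6 control and 5 sevoflurane animals (x axis), with points named by animal and the mean and SD in black. The number is higher after sevoflurane with C3 among the treated animals, and the share overlaps throughout.

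Their enrichment rank did not differ detectably with treatment either. The animals' median percentiles averaged 54.7 ± 3.69 (SD, n = 6) for controls and 53.5 ± 2.96 (SD, n = 5) for treated animals, a difference of -1.20 points (95% interval -5.83 to 3.51, exact permutation p = 0.576, adjusted 0.768). By sex, the log2 difference in the number of first-fifth peaks was 1.11 in females (4 against 3 animals, exact permutation p = 0.0857) and 0.76 in males (2 against 2, exact permutation p = 0.333, the smallest this design allows). The difference between the sexes was 0.35 (exact permutation within treatment, p = 0.587). The labels name 5 animals by a single letter and 6 by a letter and a number. Within the former the log2 difference was 1.27 (3 against 2, exact permutation p = 0.10, the smallest possible), and within the latter 0.70 (3 against 3, exact permutation p = 0.30).

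Recurrence across animals was low. Of the 772 genes, 510 (66.1%) had a first-fifth peak in 1 animal only, 57 (7.38%) in at least 6 and 8 in all 11. The share of genes seen in 1 animal was 67.3% for cap-proximal, 65.8% for mid-gene and 64.3% for last-fifth peaks. Among the 57 recurrent genes, 33 lay on the plus strand, 13 had a median edge upstream of the listed start, and 17 had a last-fifth peak in any animal. In the 62 regions seen in at least 6 animals, the 5' edge moved by a median of 164 bp between animals, and in 31 of them by at most 150 bp.

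CA11, a carbonic anhydrase-related protein of the brain without the catalytic activity of its family, carried the highest-ranked peak of the 8 genes with a first-fifth peak in all 11 animals. Its percentile in controls ran from 96.8 to 99.6 with a median of 99.0, and after sevoflurane it was 89.8 in S1, 99.1 in F, 99.6 in D, 100 in S2 and 100 in S3. The authors' fold enrichment of this peak ran from 35.9 to 667 between animals. Its 5' edge lay 178 to 237 bp inside the transcript in all 11. The control range lay within the range of the sevoflurane animals, and the lowest value was that of S1.

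FADS2, a fatty acid desaturase needed for long-chain polyunsaturated fatty acids, and FKBP2, a prolyl isomerase of the endoplasmic reticulum, followed among these 8 at median percentiles of 93.1 and 93.5. FADS2 stood between 76.5 and 99.3 in controls, with a median of 93.1. After sevoflurane it stood at 86.5 in S3, 88.8 in F, 93.7 in S1, 99.5 in S2 and 99.7 in D. It occupied bases 12410274 to 12410753 of chromosome 14 (rheMac8 assembly, minus strand), with the 5' edge 253 to 523 bp inside, and a last-fifth peak was present as well in 11 of 11 animals. FKBP2 stood between 80.2 and 97.2 in controls, and at 89.8 in S1, 92.3 in S3, 92.4 in F, 98.4 in D and 99.1 in S2. Its peaks fell into a pair of regions of chromosome 14 (minus strand), one from 10286509 to 10286808 in 8 animals and one from 10285939 to 10286359 in 7, and a mid-gene peak was called in 11 of 11. For both genes the treated and control values overlapped.

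SV2A, the synaptic vesicle glycoprotein that binds the antiepileptic levetiracetam, had a first-fifth peak of 1 block in all 11 animals. Its percentile ran from 72.9 to 95.03 in controls with a median of 78.8, and was 71.7 in S1, 74.0 in F, 89.6 in D, 91.2 in S3 and 94.7 in S2. The peaks covered bases 124264325 to 124264745 of chromosome 1 (minus strand), 124 to 304 bp inside the transcript, and SV2A had no peak of another class in any animal. SNX27 stood between 75.5 and 96.5 in controls and between 81.7 and 99.7 after sevoflurane, in the region from 126124768 to 126151804 of chromosome 1 (plus strand), which spans an intron. OGA, the enzyme that removes O-linked N-acetylglucosamine from proteins, stood at a median of 73.7, with its edge 155 to 334 bp upstream of the listed start. In OGA and SNX27 the control and treated ranges overlapped.

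TSPYL2, of the nucleosome assembly protein family, and HNRNPU, a nuclear RNA-binding scaffold protein, had first-fifth peaks in all 11 animals at lower ranks. TSPYL2 had a median percentile of 38.4, from 12.3 in S1 to 70.9 in S3. HNRNPU had a median of 37.4, from 22.5 in S3 to 61.3 in F. Its peak covered exonic sequence between 221372372 and 221373868 of chromosome 1 (minus strand), 358 to 596 bp inside the transcript. A peak called in every animal was thus not always a highly enriched one.

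**Figure D5:**
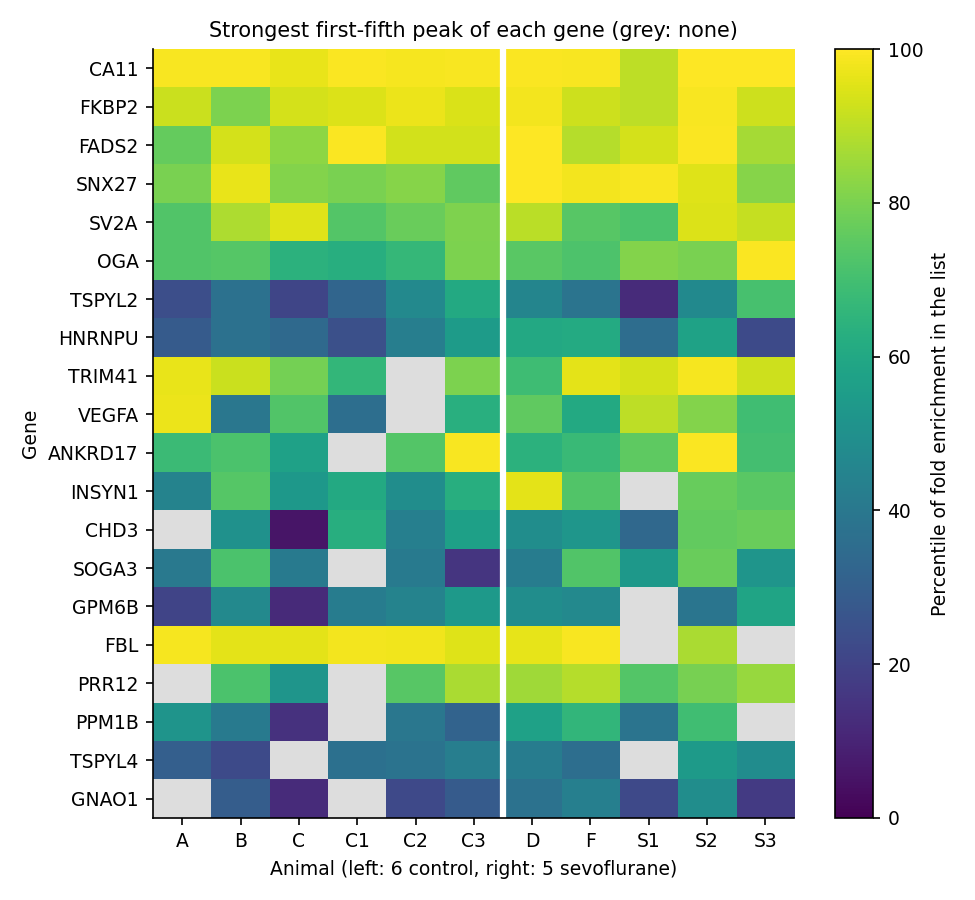
Percentile of fold enrichment within the animal's list (colour, 0 to 100) of the strongest first-fifth peak of 20 genes (rows) in 6 control and 5 sevoflurane animals (columns, parted by a white line), with grey where no such peak was called. CA11, FKBP2 and FADS2 stand high in all animals, while TSPYL2, HNRNPU and GNAO1 stand low.

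Another 7 of the 20 most recurrent genes had a first-fifth peak in 10 animals. TRIM41, a ubiquitin ligase, had a median percentile of 92.2, and VEGFA, the growth factor of blood vessels, had 71.1. The VEGFA peak lay on chromosome 4 from 44890792 to 44891032 (plus strand), 629 to 719 bp inside the transcript, and ran from the 36.1st percentile in C1 to the 97.0th in A. It was missing from the list of C2. ANKRD17, an ankyrin repeat protein, had 70.8 and INSYN1, a protein of inhibitory synapses, 67.7. CHD3, a chromatin remodeller of the NuRD complex, had 51.5, with a median of 3 blocks per peak and a last-fifth peak in 10 of 11. SOGA3 had 47.1 and GPM6B, a neural membrane glycoprotein of the proteolipid family, 45.8.

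The last 5 of the 20 were seen in 9 animals. FBL, fibrillarin, the methyltransferase of nucleolar box C/D particles, ranked at a median of 96.2 and was called as a first-fifth peak in 6 of 6 control and 3 of 5 sevoflurane animals. Its edge was the same in all 9, 6406 bp upstream of a listed transcript that spans 6283 bp, and the peak had up to 6 blocks. S1 and S3 had no first-fifth peak of FBL, but a peak annotated to another gene would not be counted. The first-fifth regions present in 6 controls were present in 4 or 5 sevoflurane animals. S1 or S3 may therefore hold an overlapping peak, and a loss there is not shown. PRR12, a proline-rich nuclear protein, had 79.3, PPM1B, a serine/threonine phosphatase, 41.2, and TSPYL4, a relative of TSPYL2, 37.98. GNAO1, the alpha subunit of the most abundant brain G protein, had 28.8, with its edge 477 to 507 bp inside the transcript in each of the 9 animals. Of the 20 genes, TRIM41 and INSYN1 were the only ones with a cap-proximal peak in any animal, in 3 and 1 animals.

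By gene group, 762 of the 3336 genes with a symbol and a positioned peak (22.8%) had a first-fifth peak, and the lists stood on either side of this share. Among presynaptic genes it was 7 of 20, with SV2A joined by PCLO, the active-zone scaffold piccolo, in 5 animals and CPLX3, a complexin, in 2. AMPH and UNC13A each had a peak in 1 animal. PCLO and CPLX3 ranked low, at median percentiles of 14.5 and 11.7. Postsynaptic genes had 2 of 18, GRM2, a metabotropic glutamate receptor, in 3 animals at a median of 87.5 and GABBR1, a GABA type B receptor subunit, in 1.

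Adhesion and guidance genes had 9 of 20. CELSR3, a cadherin-family receptor of axon guidance, was found in 6 animals (2 control, 4 sevoflurane) at a median percentile of 91.1, 164 bp inside the transcript. The protocadherins PCDH10 and PCDH17 were found in 3 sevoflurane animals each and no control, at 67.3 and 70.1. The PCDH17 edges were spread from 1256 to 2125 bp inside the transcript. Of all regions tested for presence, 1071 of 1265 (84.7%) were more often present in sevoflurane animals. PCDH7 was found in 2 controls and 1 sevoflurane animal at 18.6. CDH2, DSCAM, PLXNA2, ROBO2 and SLITRK1 were found in 1 animal each. Voltage-gated channels had 4 of 13. KCNA1, a potassium channel of axons, was found in 4 animals at a median of 75.3 and 1189 bp inside its transcript, and CACNA1A, KCND2 and SCN2A in 1 animal each.

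Chromatin genes had 9 of 32, led by CHD3 and its relative CHD4, in 7 animals at a median percentile of 24.2. BPTF, a subunit of the NURF remodeller, was found in 3 animals and KMT2D, a histone methyltransferase, in 2. RNA-binding and splicing genes had 7 of 23, and after HNRNPU none was found in more than 2 animals, with CLK4 and SRSF7 in 2 and CLK1 in 1. Transcription factors had 3 of 13, where MYT1L, a neuronal zinc finger factor, was found in 6 animals at a median of 68.7, and EGR1 and FOSL2 in 1 each. Among the m6A machinery 3 of 9 had a first-fifth peak. RBM15, a subunit of the writer complex, was found in 2 animals at 84.7, EIF3A, a translation initiation factor subunit, in 2 at 38.5, and YTHDF2, a cytoplasmic reader, in 1 at 32.3.

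Cytoskeletal genes had 2 of 20, DST and SPTAN1, each in 1 animal, and ribosomal protein genes 1 of 3, RPS14 in 3 animals. Of the cell type markers, 0 of 9 neuronal, 0 of 3 astrocytic and 0 of 2 microglial or vessel markers with a positioned peak had a first-fifth peak, against 1 of 6 oligodendrocyte lineage markers, PDGFRA. Of 18 neuronal markers listed, 9 had a positioned peak, which shows their RNA in the tissue but gives no level. With so few genes per list, these counts describe the lists and no test was made between them.

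No region of first-fifth peaks changed in presence at the threshold. Peaks of all animals were joined into 5155 regions, and Fisher's exact test was applied to the 1265 regions seen in 2 to 9 animals. Of these, 19 (1.50%) had an unadjusted p under 0.05 towards sevoflurane and 0 (0.00%) towards controls, and 0 had an adjusted p under 0.05 (smallest 0.610). A region counted as first-fifth if at least 50% of its peaks were. There were 795 of these, of which 243 were tested, and 0 passed the unadjusted threshold in either direction (smallest p = 0.0606 by Fisher's exact test). Their presence leaned to the sevoflurane animals as all regions did, with 212 of 243 (87.2%) more often present there against 1071 of 1265 (84.7%), and the median difference in the share of animals was 23.3 points for both.

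The first-fifth regions farthest towards sevoflurane were 15 of the 243 tested, with 3 treated and 0 control animals (Fisher's exact p = 0.0606, adjusted 0.610). The share of such regions among all 1265 tested was not counted, so an excess is not shown. The 8 highest-ranked were those of MON2, a Golgi trafficking factor, C4H6orf62, GGNBP2, PCDH10, PDGFRA, TPRG1L, a presynaptic vesicle protein, CCDC6 and the sorting nexin SNX1. In the regions of GGNBP2, PDGFRA and SNX1 the peak was a first-fifth one in 2 of the 3 animals. The MON2 peak lay on chromosome 11 from 61386370 to 61386640 (plus strand), 178 to 268 bp inside the transcript, at a median percentile of 84.8. The PCDH10 peak lay on chromosome 5 from 132724351 to 132724620 (plus strand), 1316 to 1345 bp inside, at 67.3. The PDGFRA peak began 102 bp outside a listed transcript that spans 1002350 bp, and the SNX1 region had peaks beginning about 14554 bp upstream.

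Towards controls, the regions of RXRB, a nuclear retinoid receptor, and of the zinc finger gene ZNF106 were present in 3 control and 0 sevoflurane animals (Fisher's exact p = 0.182, adjusted 0.610). The RXRB peak lay on chromosome 4 from 34044303 to 34044482 (minus strand), 223 to 253 bp inside, at a median percentile of 82.9, against 10.9 for ZNF106. TRAF3IP1, a protein of intraflagellar transport, was present in 4 controls and 1 sevoflurane animal (Fisher's exact p = 0.242, adjusted 0.636). AP3S2, CTHRC1, JMJD6, HAUS1 and ZSWIM8 were present in 2 controls and 0 sevoflurane animals (Fisher's exact p = 0.455, adjusted 0.906). The peak was a first-fifth one in 2 of the 3 controls for ZNF106, and in 1 of the 2 for HAUS1 and for ZSWIM8.

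A stricter peak threshold brought 2 first-fifth regions past the unadjusted threshold. With peaks of p at most 1e-05 only, 2 of 157 first-fifth regions (1.27%) and 11 of all 867 regions (1.27%) passed towards sevoflurane. They were those of KCNA6, a voltage-gated potassium channel, in 1 control and 5 sevoflurane animals, and ZBTB10, a zinc finger repressor, in 0 and 4 (Fisher's exact p = 0.0152, adjusted 0.636). With all peaks, KCNA6 was present in 3 controls and 5 sevoflurane animals (Fisher's exact p = 0.182) and ZBTB10 in 3 and 4 (p = 0.545 by the same exact test). Leaving out 1 animal moved the number of first-fifth regions past the unadjusted threshold from 0 to as many as 14, without S1, or 13, without S3. It was 7 without C3, 6 without F, 4 without S2, 3 without D, 2 without C2, 1 without B or C1 and 0 without A or C, and the share over all regions rose in these settings too, to between 1.74 and 5.53%.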

How the data were processed

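The 11 immunoprecipitated samples each have 1 table of annotated peaks. The rheMac8 assembly was used with HISAT2 2.1.0, StringTie, cutadapt and Trim Galore 0.5.0, per the submitters' processing notes. The peak caller is not given in the sources used here, nor is the use made of the input libraries. Each deposited peak carries a p-value, log10 p and false discovery rate scores and a fold enrichment (a ratio), which are the authors' own per the file headers. Deposited p-values were at most 0.001, false discovery rates at most 0.0468 and folds at least 2.06. Deposited coordinates, transcript ends and block counts were used as listed, with 1 added to printed starts, which count from 0.

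Left out were 520 peaks whose annotated gene was not the gene of the call, 177 mitochondrial peaks and 157 peaks on transcripts under 400 bp. Symbols came from the supplied table for 719 of the 772 genes and from the peak tables for 43, and 10 stayed without one. Regions joined peaks on the same strand that shared at least 1 bp of exonic block. Groups, sex and names came from the labels, and each label names a separate animal.

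Group differences used two-sided exact permutation over animals (smallest p = 0.00216), class differences exact sign flips over 11 animals, and regions Fisher's exact test. The main results carry Benjamini-Hochberg adjustment, and alternatives were judged by the unadjusted p. Intervals of 95% invert these tests. The code was tested on simulated data. The genes named are the 20 with a first-fifth peak in most animals (then by rank), 8 region genes per direction by p, and up to 4 genes per list, with unlisted ones added after seeing values (other list members, KCNA6 and ZBTB10). Some list members that this takes are counted but not reported here by name. The peaks, gene lists and tests were chosen with earlier results of these data known. Alternatives were a stricter p-value, lists of equal length, other position, distance and span limits, autosomes, strata, other region rules and leaving out each animal, and, chosen after seeing the data, the outermost ends of all listed transcripts, edges inside the transcript, and peaks of 1 block. Python 3.11.15, pandas 2.3.3, NumPy 2.4.6 and SciPy 1.17.1 were used.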

Additional observations from a re-analysis of the deposited data

Results flagged for a closer look

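Of 22 groups of animals and measures examined for a single distant value, 4 had one, where chance gives about 1 in 20 for each. The measures of an animal are not independent of each other, so these numbers do not measure an excess. Control animal C3 lay above the other controls in first-fifth peaks, with 181, and in genes with such a peak, with 175. It also lay above them in the share of those genes that had a peak of another class, 19.4%. Its list of peaks was also the longest among controls. Control animal C had a median exonic width of first-fifth peaks of 121 bp, where the other controls had 149 to 151 bp. The difference between the sexes in the response to treatment did not pass the threshold for any of the 4 treatment results (exact permutation p from 0.233 to 0.813).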

How the results depend on the processing

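In this section a result passed the test if its unadjusted p was under 0.05, a looser limit than the adjusted p of the main results. The difference from mid-gene peaks in enrichment rank kept its direction and passed the test under 21 of 21 alternatives (8.19 to 16.5 points). The share of peaks of several blocks did so under 20 of 20 (2.54 to 18.1 points), with exact sign-flip permutation p up to 0.0400. The larger numbers of first-fifth peaks and genes after sevoflurane kept direction and test under 23 of 24. In these the unadjusted exact permutation p rose to 0.0333 for both, without S2. They lost the test with lists of equal length (0.0715 and 0.0600 log2), where the list's length is removed by construction.

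For results without a call, the cause of each change below was not tested. The treatment difference in rank turned positive with a position limit of 0.15 (0.0929 points), a distance limit of 300 bp (2.57) and peaks of 1 block (2.72). The treatment difference in share turned positive with lists of equal length (0.480 points) and within naming style (0.0362), and ran from -0.916 to 0.543 when animals were left out. The difference from cap-proximal peaks turned negative with 300 bp (-7.61 points), autosomes (-0.373), spans of at least 5000 bp (-2.09) and outermost ends (-0.36), and passed the test with edges inside (4.93). That from last-fifth peaks in rank turned to -4.02 with 300 bp and passed with lists of equal length (4.32) and edges inside (3.404). The width difference passed with p at most 1e-05 (6.73 bp), and ran from 3.15 to 8.90 bp without 1 animal, passing without C (8.90). The share of genes also peaked in another class passed with p at most 1e-05 (1.78 points), a position limit of 0.25 (2.52), 300 bp (4.24), autosomes (1.85), spans of at least 5000 bp (2.04), edges inside (3.05) and 1 block (2.41), and ran from 1.18 to 2.1004 without 1 animal, passing without A (2.05), C1 (2.09) or S2 (2.1004). First-fifth regions past the unadjusted threshold numbered 2 of 157 with p at most 1e-05 (1.27%, against 1.27% of all regions). They numbered 0 to 14 without 1 animal, and the 14 of 235 without S1 (5.96%) stood against 5.53% of all regions.

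Numbers shared by C1 and S1, C2 and S2, and C3 and S3 may or may not pair animals. The correlations of their deviations were 0.0725, 0.000349 and 0.0146, and so few values cannot settle it. As a replicate block these numbers gave 0.95 log2 for peaks, 0.93 for genes, 0.0362 points for the share and -1.55 for rank. The counts' exact permutation p was 0.025 in this setting. The planned motif test was not run, because no genome of this build was used here. Without read counts, peaks absent from a shorter list cannot be told from peaks below its detection limit, and this limits every comparison of presence.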
